A study of Homo sapiens with 11 samples.

Results

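The zinc finger genes with a ZNF number on human chromosome 19 were followed in 2 prostate cancer cell lines, PC3 and DU145, with and without overexpression of the sialyltransferase ST6GAL1. Members were the rows of both count tables whose Entrez identifier is a protein-coding ZNF gene of chromosome 19 in RefSeq, with at least 30 reads summed over the control libraries of each line. This gave 181 genes of the 238 chromosome 19 ZNF genes in the tables, which list 28395 genes in all. Single members were chosen by these control counts, and the group as a whole was selected on log2 fold changes with ST6GAL1 overexpression, because neighbouring ZNF genes had been seen to shift together. The changes of the members with overexpression are therefore a description: counts of members at a threshold are printed beside the share of all genes, as a way to size the changes, and they support nothing. Nearest to the minimum, ZNF665 (32 reads in PC3 controls) and ZNF575 (33 reads in DU145 controls) were kept, and ZNF114 (26 reads in PC3 controls), ZNF878 (27 reads in DU145 controls), ZNF610 and ZNF415 (28 reads each in DU145 controls) were left out.

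A zinc finger protein of this kind reads DNA through an array of C2H2 fingers, each a short loop held by a zinc ion that contacts a few bases. Many carry a KRAB domain in front of the fingers, which recruits TRIM28 (KAP1) and through it the histone methyltransferase SETDB1 and HP1 proteins, so that bound loci, often copies of transposable elements, are silenced. Chromosome 19 holds the densest arrays of such genes in the human genome, which arose by repeated tandem duplication, and the 3' parts of these genes are themselves known to carry the repressive mark H3K9me3.

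PC3 and DU145 are epithelial lines derived from metastases of prostate cancer. Each was transduced with purified lentiviral particles carrying ST6GAL1, a Golgi enzyme that adds sialic acid to glycans, or with negative-control particles, and stable transduced cells were sequenced, so that both groups of a line carry a lentiviral vector. The promoter of the vector and whether the cells derive from one clone are not given in the sources used here. In PC3, 3 control and 3 overexpression libraries were analysed, and in DU145 3 control libraries and 2 with overexpression, numbered replicates 2 and 3. The titles call them biological replicates.

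Reads on genes totalled 13194485 to 18201359 per library, and the members together took 0.327 to 0.356% of them in PC3 and 0.227 to 0.259% in DU145. ST6GAL1 itself was read at 2.71 ± 0.538 CPM (reads scaled to the TMM-normalized library size) in PC3 control and 32.6 ± 0.814 in PC3 overexpression cells (SD, n = 3 each), and at 12.9 ± 1.45 (SD, n = 3) and 322.9 ± 35.2 (SD, n = 2) in DU145. The 5 epithelial markers KRT8, KRT18, KRT19, EPCAM and CDH1 were present in every library (summed 864.0 to 1339 CPM), whereas KLK3 and KLK2, the kallikreins of the luminal prostate, had no reads in either line's controls. Summed markers of other cell types were 0.443 to 2.90 CPM for 5 leukocyte genes, 0.396 to 7.45 CPM for 3 endothelial genes and 3.09 to 26.9 CPM for 4 fibroblast genes, nearly all of the last from COL1A1. In bulk RNA, fewer cells that express a gene and less RNA per cell cannot be told apart. One library stood apart, DU145 overexpression replicate 2. Its log2 difference from the controls correlated with the GC content of the transcript over 13331 genes (Spearman's rho -0.536, against -0.0569 in replicate 3, a description over genes). Smaller correlations with GC content were also seen among controls, each set against the other controls of its line. They were -0.219, -0.0803 and 0.259 in DU145 controls and -0.317, 0.271 and 0.0455 in PC3 controls. Several summary values of DU145 are given with and without overexpression replicate 2. Others are given only with it, among them the median log2 fold changes of the comparison sets, the counts of groups without overlap and the correlation between the lines.

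The 181 genes fell into 15 groups along the chromosome when a gap of over 1 Mb between neighbours started a new group, and 8 groups with at least 5 members held 167 of them. In GRCh38 these run from ZNF557 to ZNF846 (13 members, chr19:7069703-9786160), ZNF653 to ZNF791 (19, chr19:11483429-12633834), ZNF101 to ZNF429 (8, chr19:19668153-21540668) and ZNF730 to ZNF254 (7, chr19:23075211-24129968) on the short arm, and from ZNF565 to ZNF607 (17, chr19:36182060-37719761), ZNF575 to ZNF180 (21, chr19:43530835-44500522), ZNF175 to ZNF331 (34, chr19:51571283-53580269) and ZNF628 to ZNF446 (48, chr19:55476617-58489533) on the long arm. Coding sequences held a median of 12 C2H2 finger matches, from 1 in ZNF428 to 31 in ZNF91, against a median of 9 in ZNF genes of other chromosomes. A KRAB A-box signature (F, then S or T, any 2 residues, E, W) was found in 132 members, 72.9%, against 92 of 234 (39.3%) of the ZNF genes elsewhere. The search missed the cluster from ZNF575 to ZNF180, where 1 of 21 members matched. When L was allowed as the last residue, an allowance made after this count was seen, 17 of these 21 and 148 of all members matched.

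The promoters were compared over the 300 bases from 250 before to 50 after the RefSeq start of the gene, which was given for 163 members. An ETS-type site, CCGGAAGT on either strand, was found in 33 of them (20.2%), against 15.03% of 193 promoters of ZNF genes elsewhere, 4.96% of 947 other protein-coding genes of chromosome 19 and 6.19% of all 15843 promoters of protein-coding genes. The matches were not spread evenly. Of the 43 promoters in the cluster from ZNF628 to ZNF446, 22 held the site, against 11 of the 120 promoters outside it. The CCAAT box (CCAAT) was found in 51.5% and the GC box (GGGCGG) in 69.3% of the members' promoters, against 36.4% and 58.5% of all promoters, and the TATA box (TATAAA) in 2.45% against 9.63%. The remaining motifs searched were AAGATGGC, as bound by YY1 (6.75% against 3.91%), and the NRF1 palindrome (1.84% against 1.75%). All were searched on both strands. A match is a string of letters and does not show that a factor binds there.

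The 6 promoters shown are among those of the members with the largest changes described below. Each line gives the 250 bases before the gene start in RefSeq on GRCh38.p14, read 5' to 3' on the strand of the gene, with matches to the motifs in capitals (CCGGAAGT, GGGCGG and CCAAT, or their reverse complements ACTTCCGG, CCGCCC and ATTGG). The windows are chr19:52397599-52397848 on the plus strand for ZNF528, and on the minus strand chr19:53254824-53255073 for ZNF677, chr19:51986841-51987090 for ZNF350, chr19:37719189-37719438 for ZNF607, chr19:57727625-57727874 for ZNF671 and chr19:56121296-56121545 for ZNF787. In ZNF787 the ETS-type site was matched on both strands at overlapping positions.
ZNF528: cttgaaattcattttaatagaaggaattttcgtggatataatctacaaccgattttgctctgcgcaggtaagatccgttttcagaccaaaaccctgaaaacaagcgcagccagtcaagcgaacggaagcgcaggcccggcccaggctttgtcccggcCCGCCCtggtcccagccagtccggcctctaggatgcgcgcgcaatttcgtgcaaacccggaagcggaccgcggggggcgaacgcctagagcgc
ZNF677: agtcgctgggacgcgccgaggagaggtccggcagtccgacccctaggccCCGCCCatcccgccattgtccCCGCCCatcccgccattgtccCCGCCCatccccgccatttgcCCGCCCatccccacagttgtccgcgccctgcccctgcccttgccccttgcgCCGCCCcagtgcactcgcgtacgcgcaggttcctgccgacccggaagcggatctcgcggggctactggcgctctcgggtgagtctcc
ZNF350: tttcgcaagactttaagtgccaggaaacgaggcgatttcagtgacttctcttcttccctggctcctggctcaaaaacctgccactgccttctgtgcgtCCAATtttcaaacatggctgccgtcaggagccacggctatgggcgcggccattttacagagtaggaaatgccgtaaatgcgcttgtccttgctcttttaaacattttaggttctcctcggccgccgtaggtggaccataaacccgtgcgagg
ZNF607: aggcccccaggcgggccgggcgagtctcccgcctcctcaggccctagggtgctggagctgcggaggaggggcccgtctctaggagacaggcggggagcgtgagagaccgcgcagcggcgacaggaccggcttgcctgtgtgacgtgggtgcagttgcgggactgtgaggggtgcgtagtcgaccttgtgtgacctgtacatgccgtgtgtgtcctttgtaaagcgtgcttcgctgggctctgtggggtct
ZNF671: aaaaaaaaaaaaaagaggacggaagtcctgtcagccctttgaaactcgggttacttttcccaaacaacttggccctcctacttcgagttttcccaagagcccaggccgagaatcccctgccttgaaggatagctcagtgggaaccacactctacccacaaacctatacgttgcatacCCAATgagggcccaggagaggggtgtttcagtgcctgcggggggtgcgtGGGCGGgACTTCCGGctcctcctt
ZNF787: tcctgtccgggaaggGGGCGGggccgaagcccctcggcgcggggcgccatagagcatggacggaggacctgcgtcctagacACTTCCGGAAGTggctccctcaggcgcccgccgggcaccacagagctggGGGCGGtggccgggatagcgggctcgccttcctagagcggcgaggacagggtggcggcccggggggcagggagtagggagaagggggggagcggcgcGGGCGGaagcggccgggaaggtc
ZNF528 had 1 GC box, ZNF677 had 5, ZNF350 held a CCAAT box and no GC box, and ZNF607 matched none of the motifs. ZNF671 and ZNF787, both of the cluster from ZNF628 to ZNF446, carried the ETS-type site.

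Most members were low in abundance. Mean levels in PC3 controls ran from 0.642 to 112.1 CPM with a median of 12.7, and in DU145 controls from 0.747 to 211.6 CPM with a median of 8.31, and 56 members were under 10 CPM in both control groups. Most reads fell on ZNF146 (a protein made almost wholly of fingers, without a KRAB domain), ZNF317, ZNF358 and ZNF83, at means of 160.2, 69.1, 67.5 and 56.8 CPM over the 11 libraries. Per kilobase of transcript, ZNF146 (47.9 CPM per kb) was followed by ZNF580 (41.4) and ZNF358 (34.3), and ZNF665 was lowest at 0.260 CPM per kb.

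In PC3 cells with ST6GAL1 overexpression, 137 of the 181 members had a higher fitted level than in control cells and 44 a lower one, where 49.7% of all 13544 genes tested were higher. The shift was small: the median log2 fold change of the members was 0.13, against 0.02 for 203 ZNF genes of other chromosomes, 0.01 for 721 other protein-coding genes of chromosome 19 and -0.0016 for all genes. At an adjusted p under 0.05 in edgeR's quasi-likelihood test 57 members were higher and 5 lower, beside 18.8% and 18.5% of all genes. With an absolute log2 fold change over 0.58 as well, 5 members were called higher and 0 lower, beside 3.61% and 1.76% of all genes (5.38% in either direction), and the 5 became 8 without overexpression replicate 1 and 3 without overexpression replicate 2. Every overexpression library exceeded every control library for 67 members, and 8 were below in the same way, beside 23.2% and 23.0% of all genes. Since this contrast had been in view when the group was chosen, nothing is read from these counts.

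Library by library, the median log2 difference of the members from the controls was 0.102, 0.143 and 0.141 in the 3 PC3 overexpression libraries, and 0.0443, -0.0348 and -0.0088 in the controls, each set against the other 2. All 3 overexpression libraries lay above all 3 controls. The same medians for the other protein-coding genes of chromosome 19 lay between 0.0038 and 0.0153 with overexpression, inside the span of their controls (-0.0310 to 0.0341). Taking a trend on GC content and length off all genes, which explained 0.587% of the variance in PC3, left the median of the members at 0.146, with 142 higher.

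ZNF528, a KRAB protein with 15 finger matches (chr19:52397849-52418401), differed most in PC3. It was read at 1.68, 1.97 and 2.75 CPM in the controls and at 6.14, 6.36 and 5.88 CPM with overexpression. The groups did not overlap, and the log2 fold change was 1.54 ± 0.17 (SE), a 2.90-fold difference. ZNF677, a KRAB protein of the same cluster (chr19:53235381-53254873) known to be methylated in several tumours, was read at 3.14, 2.16 and 2.29 CPM in controls and 4.64, 5.20 and 6.07 CPM with overexpression, a log2 fold change of 1.06 ± 0.17. For ZNF682, on the short arm (chr19:19995131-20039505), the values were 1.51, 1.01 and 0.915 CPM against 2.18, 1.94 and 2.47 CPM, a log2 fold change of 0.91 ± 0.25. These 3 genes were low, near or under 3 CPM in every PC3 control library, and clear of the overexpression libraries.

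ZNF221 (chr19:43951228-43981613) was the lowest of those called, at 1.23, 0.698 and 0.981 CPM in controls and 1.30, 1.94 and 2.02 CPM with overexpression. Its log2 fold change was 0.85 ± 0.27, the groups lay side by side with hardly a gap, and the call was lost with DESeq2, without overexpression replicate 2 or 3 and without control replicate 2. ZNF471, another KRAB protein known to be methylated in tumours (chr19:56507855-56530212), was read at 8.06, 7.49 and 6.93 CPM in controls and 11.4, 12.6 and 11.1 CPM with overexpression, a log2 fold change of 0.64 ± 0.10, and fell under the fold threshold without overexpression replicate 2. The sixth in order, ZNF491, stood at 3.36, 3.11 and 3.66 CPM against 4.57, 5.09 and 5.31 CPM and a log2 fold change of 0.57 ± 0.15.

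Differences in the other direction were smaller. The lowest log2 fold changes in PC3 were those of ZNF565 (-0.30 ± 0.21), ZNF235 (-0.27 ± 0.19), ZNF792 (-0.27 ± 0.10), ZNF460 (-0.22 ± 0.21), ZNF850 (-0.19 ± 0.17) and ZNF229 (-0.19 ± 0.12). Of these, ZNF792 and ZNF229 had groups that did not overlap, with ZNF792 at 11.8, 10.7 and 10.98 CPM in controls and 9.55, 9.90 and 8.41 CPM with overexpression. Among the 4 members with most reads, ZNF83 was read at 65.8, 58.2 and 60.2 CPM in controls and 82.3, 78.2 and 79.1 CPM with overexpression, a log2 fold change of 0.37 ± 0.04, whereas ZNF146 (-0.07 ± 0.04), ZNF317 (-0.08 ± 0.04) and ZNF358 (0.07 ± 0.04) had overlapping groups. The median standard error over the members was 0.0874 in PC3 and 0.150 in DU145.

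In DU145 cells with ST6GAL1 overexpression, 145 of the 181 members had a higher fitted level than in control cells and 36 a lower one, where 49.8% of all 13676 genes tested were higher. The median log2 fold change of the members was 0.18, against 0.06 for 204 ZNF genes of other chromosomes and -0.21 for 734 other protein-coding genes of chromosome 19. At an adjusted p under 0.05 in edgeR's quasi-likelihood test 22 members were higher and 1 lower, beside 10.7% and 9.42% of all genes, and the 22 became 3 without any one control, 10 without overexpression replicate 2 and 39 without replicate 3. With the fold threshold 6 were called higher and 1 lower, beside 4.33% and 4.61% of all genes (8.94% in either direction). Groups did not overlap for 85 members higher and 8 lower, beside 25.2% and 23.1% of all genes. As in PC3, nothing is read from these counts.

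The DU145 values rested unevenly on the libraries. The median log2 difference of the members was 0.245 in overexpression replicate 2 and 0.125 in replicate 3, and 0.0235, 0.0086 and -0.0410 in the controls. The other protein-coding genes of chromosome 19, with a median transcript GC content of 61.0% against 42.6% in the members, stood at -0.405 in replicate 2 and -0.0439 in replicate 3. Without replicate 2, the median of the members was 0.111, 131 members were higher, and 4 were called. Among single genes, ZNF671 went from 0.80 to 0.41 and ZNF414 from -0.46 to -0.0086. Without replicate 3 the median was 0.244, with 144 higher and 21 called. Leaving out a single control left 3, 3 and 4 called members. A trend on GC content and length explained 8.75% of the variance over all genes in DU145, and once it was taken off the median was 0.130 for the members, with 134 higher, and -0.03 for the other protein-coding genes of chromosome 19. The part of library composition in the shift of the members was not tested beyond these values.

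ZNF350 (ZBRK1), a KRAB protein known as a partner of BRCA1 (chr19:51964340-51986840), differed most. It was read at 1.71, 1.58 and 1.64 CPM in DU145 controls and 5.24 and 4.40 CPM with overexpression, a log2 fold change of 1.54 ± 0.21 (SE), or 2.91-fold. The groups were far apart, and with any one library left out the log2 fold change stayed between 1.41 and 1.67. In PC3 the same gene was read at 5.66, 4.50 and 5.49 CPM in controls and 5.39, 5.64 and 6.64 CPM with overexpression, groups that overlapped. ZNF429 (chr19:21505602-21540668) was read at 4.81, 4.67 and 5.82 CPM in DU145 controls and 8.60 and 9.36 CPM with overexpression, a log2 fold change of 0.82 ± 0.16. ZNF671 (chr19:57719751-57727624), known to be methylated in several tumours, stood at 1.25, 1.45 and 1.27 CPM against 2.91 and 1.78 CPM, and its log2 fold change of 0.80 ± 0.29 was not called.

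ZNF347, ZNF615 and ZNF284 differed less, by 1.54 to 1.62-fold. ZNF347 (chr19:53134935-53159053), with 17 finger matches, was read at 7.64, 9.16 and 9.10 CPM in controls and 13.2 and 13.6 CPM with overexpression, a log2 fold change of 0.63 ± 0.14 that was not called without control replicate 1. ZNF615 (chr19:51991332-52008211), with 19 finger matches, was read at 7.90, 7.39 and 6.19 CPM against 11.8 and 10.4 CPM, a log2 fold change of 0.62 ± 0.15 that was not called without overexpression replicate 2 or control replicate 2 or 3. For ZNF284 the log2 fold change was 0.70 ± 0.22, from 2.24, 2.65 and 2.01 CPM to 4.14 and 3.40 CPM, but 57.0% of the 75-base windows of its transcript occur in no other annotated gene, so its reads may be shared with an overlapping transcript, and its call was lost without overexpression replicate 2 or any one control. ZNF613 (0.61 ± 0.20, a gene named after its value was seen) was called too, and lost its call with DESeq2, with limma-voom and without overexpression replicate 2 or any one control. ZNF350, ZNF615 and ZNF613 lie next to one another on the chromosome.

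The called lower member in DU145 was ZNF428, a short protein with 1 finger match and a transcript GC content of 60.2%. It was read at 5.07, 4.42 and 3.36 CPM in controls and 2.39 and 2.62 CPM with overexpression, a log2 fold change of -0.78 ± 0.22, and its call was lost with DESeq2, without overexpression replicate 2 and without control replicate 1 or 2. In PC3 its log2 fold change was 0.19 ± 0.07. The next lowest among members of at least 1 CPM were ZNF442 (-0.56 ± 0.32), ZNF414 (-0.46 ± 0.32), ZNF653 (-0.46 ± 0.23), ZNF444 (-0.42 ± 0.15) and ZNF784 (-0.35 ± 0.23), none of them called. ZNF414 shows the weight of one library: it was read at 6.46, 6.13 and 7.38 CPM in controls, 2.85 CPM in overexpression replicate 2 and 6.63 CPM in replicate 3. ZNF414, ZNF653, ZNF444 and ZNF784 have transcripts of 62.6%, 65.4%, 68.7% and 64.8% GC, and ZNF442 has one of 41.8%. Without overexpression replicate 2 the log2 fold changes were -0.0086 for ZNF414, -0.18 for ZNF653 and -0.15 for ZNF784. ZNF444 (-0.39) and ZNF442 (-0.47) moved less.

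**Figure D1:**
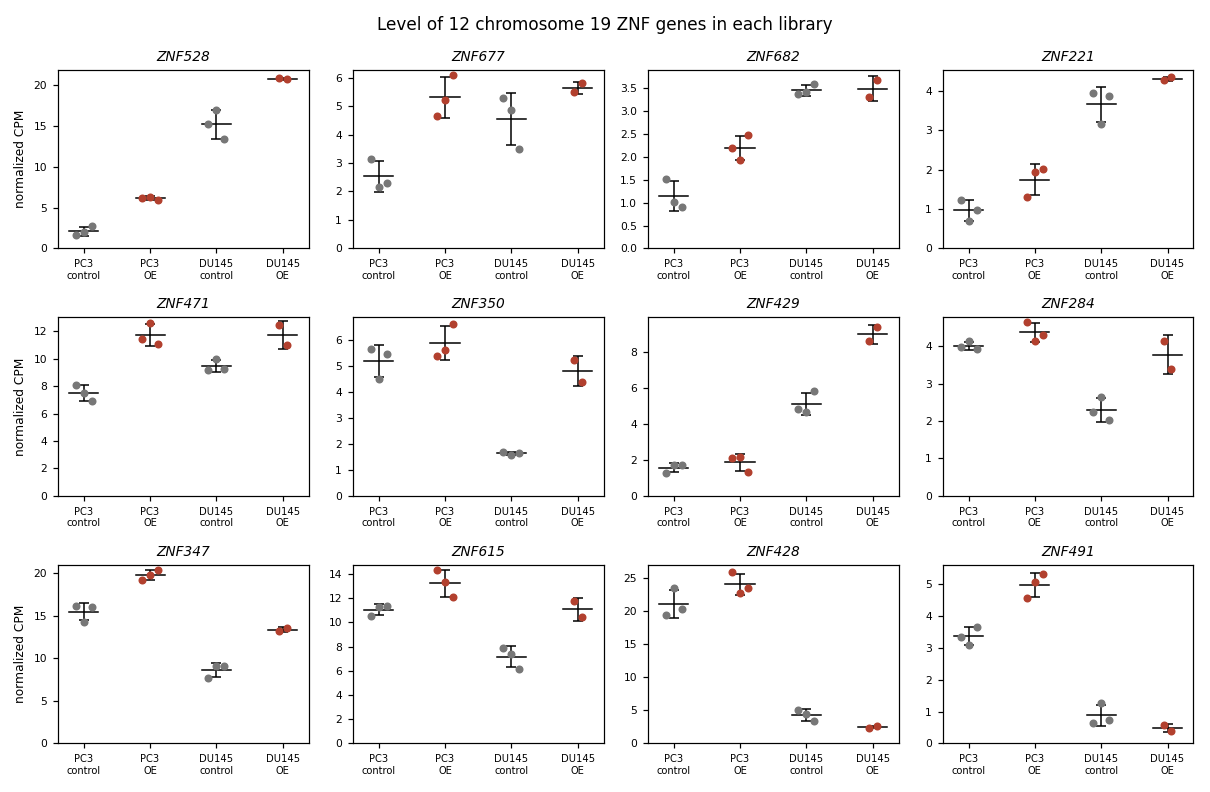
Normalized CPM (y axis, from 0) of 12 members in every library, by line and group (x axis; OE, ST6GAL1 overexpression), with grey points for control and red points for overexpression libraries and bars for the mean ± SD. ZNF528 has means of 2.13 and 6.13 CPM in the PC3 groups and stands above 13 CPM in DU145, and ZNF350 is low in the DU145 controls (1.58 to 1.71 CPM) alone.

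The lines were compared gene by gene, since their control samples are separate. Of the 181 members, 113 (62.4%) had a higher fitted level with overexpression in both lines, 12 a lower one in both, 24 were higher in PC3 and lower in DU145, and 32 the reverse. Among the 12413 genes tested in both lines, 26.0% were higher in both. Without DU145 overexpression replicate 2, 101 members were higher in both. The changes in the lines correlated weakly over the members (Spearman's rho 0.280, Pearson's r 0.182, n = 181 genes that share their libraries), and the rho over all genes was 0.0861. For 42 members overexpression libraries exceeded control libraries without overlap in both lines, 23.2% of the members beside 7.07% of all genes. No member was called in both.

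At an adjusted p under 0.05 in each line 10 members were higher in both, 5.52% beside 2.88% of all genes. Without any one DU145 control 1 member was left, without DU145 overexpression replicate 2 there were 5, without replicate 3 there were 17, and with DESeq2 in DU145 there were 3. Of the 10, 6 lie in the cluster from ZNF175 to ZNF331. They are ZNF615, ZNF432, ZNF528, ZNF701, ZNF468 and ZNF347. The remaining 4 are ZNF426, ZNF561, ZNF667 and ZNF91, the last known to repress SVA retrotransposons. Several of these genes are outside the rule for named genes and were chosen after their values were seen. ZNF432 was read at 11.1, 12.4 and 10.7 CPM in PC3 controls and 14.1, 17.0 and 17.3 CPM with overexpression, and at 5.93, 6.00 and 6.27 CPM in DU145 controls and 9.19 and 7.63 CPM with overexpression. ZNF91 was read at 28.0, 25.2 and 23.7 CPM against 30.1, 31.0 and 31.1 CPM in PC3, and at 10.01, 9.54 and 11.3 CPM against 14.6 and 12.6 CPM in DU145. In both genes, each overexpression library lay above each control of its line.

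By position, the cluster from ZNF175 to ZNF331 had the highest median in DU145, and in PC3 it was about level with the cluster from ZNF730 to ZNF254. Its median log2 fold change was 0.21 in PC3, with 31 of 34 members higher, and 0.30 in DU145, with 32 of 34 higher. At an adjusted p under 0.05, 16 of its members were higher in PC3 and 11 in DU145, and 0 were lower in either line. The 11 became 2 without any one control, 6 without overexpression replicate 2 and 5 with DESeq2. Leaving out a library kept its median between 0.168 and 0.244 in PC3 and between 0.232 and 0.357 in DU145, and the GC and length trend left 0.24 and 0.21. Its median difference from the controls was 0.161, 0.214 and 0.244 in the PC3 overexpression libraries and 0.353 and 0.242 in those of DU145, above every control library of the line (-0.0269 to 0.0682 in PC3 and -0.0890 to 0.0786 in DU145). The cluster from ZNF730 to ZNF254 stood at 0.22 in PC3 (7 of 7 members higher) and 0.20 in DU145 (6 of 7, and 0.132 to 0.304 with a library left out).

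The medians of the other clusters lay between 0.07 and 0.18 in PC3 and between 0.11 and 0.21 in DU145. From ZNF653 to ZNF791 the medians were 0.18 in PC3 (16 of 19 higher) and 0.11 in DU145 (14 of 19), where leaving out a library moved the value between -0.00076 (without overexpression replicate 2) and 0.267. In the cluster from ZNF565 to ZNF607 they were 0.13 (12 of 17) and 0.13 (16 of 17), from ZNF575 to ZNF180 0.15 (17 of 21) and 0.16 (13 of 21), and from ZNF628 to ZNF446 0.10 (36 of 48) and 0.16 (38 of 48). The clusters from ZNF557 to ZNF846 (0.07 and 0.21) and from ZNF101 to ZNF429 (0.09 and 0.12) completed the 8. Without DU145 overexpression replicate 2, the DU145 medians were 0.0584 from ZNF565 to ZNF607, 0.0754 from ZNF575 to ZNF180, 0.106 from ZNF557 to ZNF846, 0.0632 from ZNF101 to ZNF429, and 0.186 from ZNF628 to ZNF446. In PC3, leaving out a library moved the cluster from ZNF101 to ZNF429 between 0.0280 and 0.152, that from ZNF557 to ZNF846 between 0.0445 and 0.0895, and that from ZNF565 to ZNF607 between 0.0811 and 0.157. Neighbouring members within a cluster had the same sign in 69.9% of 166 pairs in PC3 and 77.7% in DU145, as most members were higher, and the sizes of the changes of neighbours correlated weakly (Spearman's rho 0.179 and 0.271). Without DU145 overexpression replicate 2 the same sign was seen in 64.5% of the DU145 pairs, with a rho of 0.109. No cluster of at least 5 members had a median below 0 in either line with all libraries, whereas of the smaller groups ZNF554 to ZNF77 (4 members) stood at -0.08 in PC3 and 0.11 in DU145, ZNF302 to ZNF792 (4) at -0.10 and -0.01, and ZNF574 to ZNF526 (2) at -0.06 in both. Without DU145 overexpression replicate 2 the DU145 medians of these smaller groups were, in the same order, -0.0517, -0.202 and 0.0995. The difference of the clusters from one another was not tested.

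**Figure D2:**
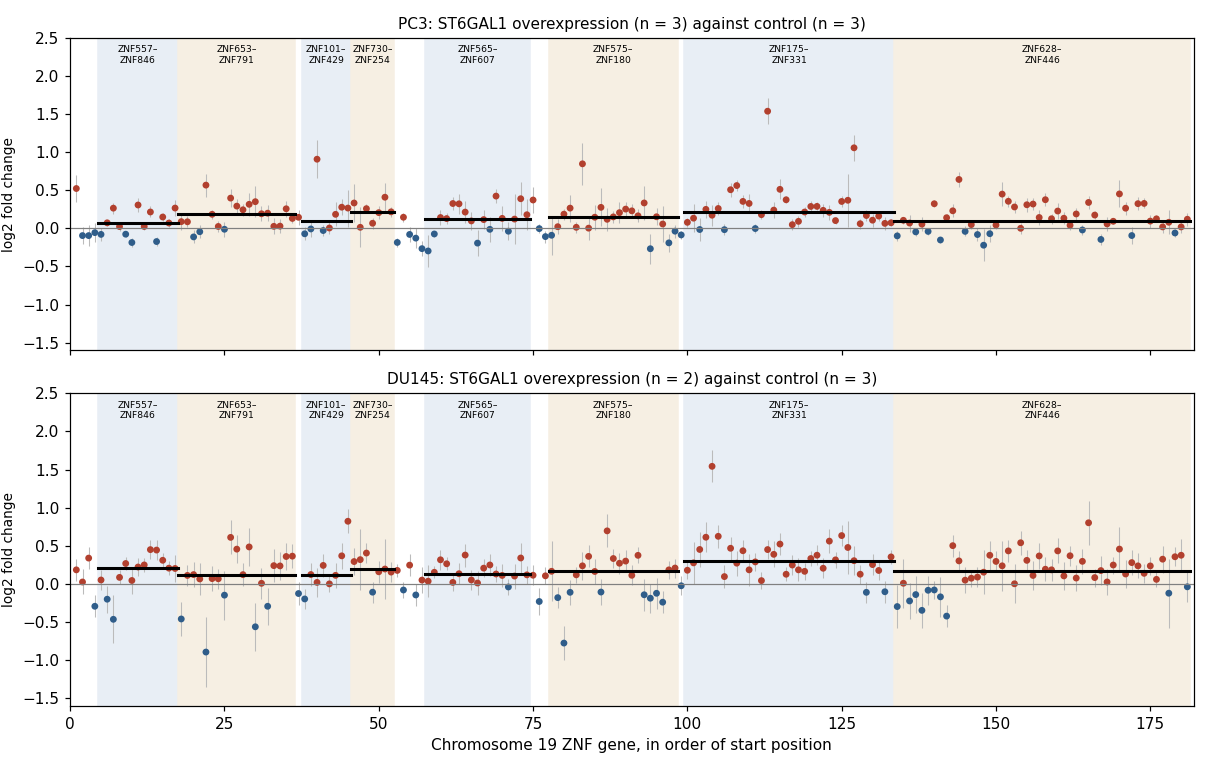
Log2 fold change of each of the 181 members with ST6GAL1 overexpression (y axis; points with SE, red above 0 and blue below) in order of position along chromosome 19 (x axis), in PC3 (top) and DU145 (bottom). Bands mark the 8 clusters and black lines their medians, which all lie above 0, at 0.21 and 0.30 in the cluster from ZNF175 to ZNF331.

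Members with the KRAB signature had median log2 fold changes of 0.145 in PC3 (102 of 132 higher) and 0.207 in DU145 (119 of 132), and members without it 0.0874 (35 of 49) and 0.0091 (26 of 49). Their median GC contents were 42.2% and 44.7%. Without DU145 overexpression replicate 2 the DU145 medians were 0.128 with and 0.0864 without the signature. When L was allowed as the last residue, the 33 members still without it had a median GC content of 60.2% and a DU145 median of -0.0378, or 0.0756 without that library. The 28 members of which under 90% of the 75-base windows are unique, such as ZNF709 (7.78%), ZNF564 (14.8%) and ZNF490 (43.7%), had medians of 0.147 and 0.158, and the other 153 had 0.130 and 0.177 (0.104 and 0.112 in DU145 without overexpression replicate 2). Reads of such genes could be split among copies or overlapping transcripts, and their single values are uncertain. Members with the ETS-type promoter site had medians of 0.0970 in PC3 and 0.185 in DU145, and those without it 0.132 and 0.163 (0.167 and 0.106 in DU145 without overexpression replicate 2).

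The lines themselves differed far more than the groups within them. Single genes were tested in this contrast. The minimum of 30 control reads in each line uses the same counts and left out genes silent in one line, so the counts and medians over the members are a description. In DU145 controls against PC3 controls, 103 members were called lower and 41 higher, beside 32.8% and 31.8% of the 14246 genes tested, 64.6% together (edgeR's quasi-likelihood test, with the same thresholds). By sign alone 59 were higher and 122 lower, where 50.1% of all genes were higher. The median log2 difference, DU145 minus PC3, was -0.77. With the same minimum applied to every set, it was -0.36 for 196 ZNF genes of other chromosomes, -0.56 for 670 other protein-coding genes of chromosome 19 and 0.0034 for 12215 genes in all, of which 29.0% were called higher and 30.2% lower. With no minimum, the 216 chromosome 19 ZNF genes tested had a median of -0.68, with 66 called higher and 112 lower. After the trend on GC content and length the median was -0.83 for the members. For the other protein-coding genes of the chromosome, here without the minimum (753 tested, median -0.55 before the trend), it was 0.02. The cell line and the preparation of its libraries cannot be told apart in this contrast.

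Direction followed position. All 19 members from ZNF653 to ZNF791 were called lower in DU145, with a median of -1.32, and 44 of 48 from ZNF628 to ZNF446 were called lower and 0 higher, with a median of -1.42. In the cluster from ZNF175 to ZNF331, 23 of 34 were called lower and 3 higher (median -0.83). These clusters together held 86 of the 103 called lower, among 101 members. In the cluster from ZNF565 to ZNF607 all 17 members were higher in DU145 and 15 were called, with a median of 0.93, and from ZNF575 to ZNF180 12 of 21 were called higher and 4 lower (median 0.79). These 38 members held 27 of the 41 called higher. Neighbours had the same sign in 80.1% of 166 pairs, and the rho between neighbours was 0.581, a description over genes of shared libraries. The 5 other protein-coding genes tested between ZNF565 and ZNF607 were all higher in DU145 too, with a median of 4.81. The 7 between ZNF575 and ZNF180 had a median of 0.00075 with 4 higher. Unlike the members, these genes were not held to the minimum of 30 control reads. The 5 include the zinc finger genes ZFP14 (log2 0.46), ZFP30 (0.77) and ZFP82 (5.84). ZFP82 had only 3, 8 and 2 reads in the PC3 controls.

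**Figure D3:**
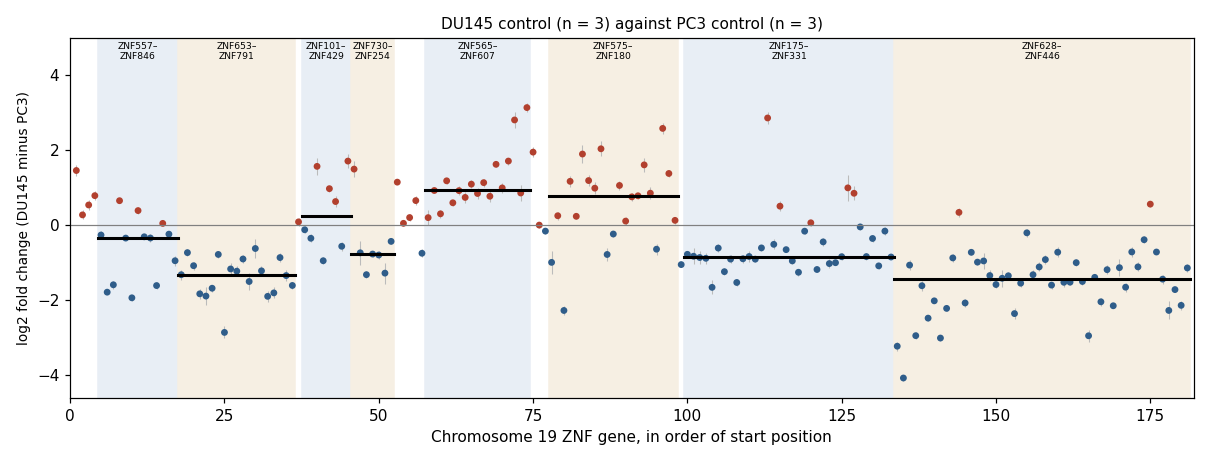
Log2 difference of each member between the control cells of the lines, DU145 minus PC3 (y axis; points with SE, red above 0 and blue below), in order of position along chromosome 19 (x axis), with bands for the 8 clusters and black lines for their medians. Members from ZNF565 to ZNF607 all lie above 0 (median 0.93) and members from ZNF653 to ZNF791 all lie below it (median -1.32).

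ZNF607 (chr19:37696363-37719761) differed most among those higher in DU145. It was read at 1.96, 2.03 and 2.424 CPM in PC3 controls and 19.5, 19.2 and 17.7 CPM in DU145 controls, an 8.81-fold difference (log2 3.14 ± 0.13, adjusted p = 5.25e-19, edgeR's quasi-likelihood test). Of its 75-base windows 80.9% are unique, so part of its reads may be shared with an overlapping transcript. ZNF570 of the same cluster stood at 0.898, 0.826 and 0.590 CPM against 5.72, 5.55 and 5.20 CPM (log2 2.81 ± 0.21). From the cluster between ZNF575 and ZNF180, ZNF285 was read at 1.80, 1.46 and 1.83 CPM against 10.5, 10.1 and 10.03 CPM (log2 2.58 ± 0.15). For none of the 3 did any library of one line reach the range of the other.

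ZNF222 (log2 2.04 ± 0.20, with 83.6% of windows unique) and the single-standing ZNF546 (1.95 ± 0.13) followed, again without overlap. ZNF528 went against its cluster, at 1.68, 1.97 and 2.75 CPM in PC3 controls and 15.4, 17.1 and 13.5 CPM in DU145 controls (log2 2.86 ± 0.15, adjusted p = 2.23e-16, edgeR's quasi-likelihood test). This value shares the PC3 controls with the log2 fold change of 1.54 with overexpression, and both are given side by side only.

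On the lower side, ZNF579 (chr19:55576774-55580848) was read at 68.8, 69.8 and 65.9 CPM in PC3 controls and 3.59, 3.77 and 4.901 CPM in DU145 controls, 16.8-fold lower (log2 -4.07 ± 0.09, adjusted p = 9.59e-25, edgeR's quasi-likelihood test). ZNF787 stood at 84.6, 81.4 and 85.3 CPM against 9.52, 9.96 and 11.99 CPM (log2 -3.00 ± 0.08). ZNF628 (-3.22 ± 0.12) and ZNF865 (-2.94 ± 0.09) lie beside them at the start of the last cluster. The transcripts of these 4 genes have GC contents of 66.0 to 70.9%, and after the GC and length trend their log2 differences were -2.85 for ZNF579, -1.22 for ZNF787, -1.34 for ZNF628 and -1.05 for ZNF865.

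ZNF671 and ZNF433 have transcripts of 49.9% and 43.3% GC and kept their differences after the trend. ZNF671 was read at 9.71, 11.4 and 10.1 CPM in PC3 controls and 1.26, 1.47 and 1.28 CPM in DU145 controls (log2 -2.94 ± 0.16, and -2.99 after the trend). ZNF433, in the cluster from ZNF653 to ZNF791, was read at 11.1, 10.3 and 9.83 CPM against 1.20, 1.53 and 1.58 CPM (log2 -2.85 ± 0.16, and -3.03 after the trend). Both were well separated between the lines. Of the members with most reads, ZNF146 was called higher in DU145 (0.93 ± 0.05), and ZNF358 (-1.78 ± 0.06) and ZNF83 (-0.65 ± 0.06) were called lower.

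The partners of KRAB proteins were taken from a list of 22 genes, of which 21 were tested and EHMT2 had 0 reads in the controls of both lines. Whether EHMT2 is absent or its reads were lost in the counting was not tested. TRIM28, the corepressor that binds KRAB directly, lies on chromosome 19 itself (chr19:58544064-58550715). It follows the end of the cluster from ZNF628 to ZNF446, whose median between the lines was -1.42, and the part of position in its level was not tested. TRIM28 was read at 716.4 ± 20.3 CPM in PC3 controls and 253.3 ± 8.77 CPM in DU145 controls (SD, n = 3 each), and was called lower in DU145 (log2 -1.49 ± 0.05, adjusted p = 2.54e-21, edgeR's quasi-likelihood test). SETDB1 went the other way between the lines (1.43 ± 0.06), as did the HP1 gene CBX5 (2.15 ± 0.06). In all, 7 of the 21 were called higher and 4 lower in DU145, beside 31.8% and 32.8% of all genes.

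With ST6GAL1 overexpression these genes differed less than between the lines. In PC3, 2 of the 21 were higher and 9 lower at an adjusted p under 0.05, beside 18.8% and 18.5% of all genes, and 0 passed the fold threshold, with a list median of -0.06. TRIM28 was lower by a log2 fold change of -0.10 ± 0.03 (adjusted p = 0.00174) and SETDB1 higher by 0.27 ± 0.06 (adjusted p = 0.000163, edgeR's quasi-likelihood test). In DU145, 2 were higher and 2 lower, beside 10.7% and 9.42%, with a list median of -0.02. UHRF1, which guides maintenance DNA methylation, was called lower there (-0.60 ± 0.11, adjusted p = 0.0036), and in PC3 its log2 fold change was -0.36 ± 0.04 (adjusted p = 6.58e-11, edgeR's quasi-likelihood test). In DU145 UHRF1 was read at 73.4, 70.6 and 73.8 CPM in controls, 40.8 CPM in overexpression replicate 2 and 55.0 CPM in replicate 3. Both overexpression libraries lay below every control, but the larger difference was in replicate 2, the library that stood apart. The fold threshold was passed narrowly, and whether the UHRF1 call holds without replicate 2 was not tested. TRIM28 in DU145 had a log2 fold change of -0.21 ± 0.09 and an adjusted p of 0.126. Zinc finger genes of chromosome 19 without a ZNF number, a list of 15 that includes ZFP30, ZIK1 and PEG3, had medians of 0.0139 in PC3 and 0.0511 in DU145 over the 8 tested in each line. PEG3, an imprinted gene, was the only one of them called with overexpression, and was lower in PC3.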

How the data were processed

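RNA was prepared with a stranded mRNA kit and sequenced as 75-base single reads. The authors worked in Galaxy: Cutadapt trimmed the reads, HISAT2 placed them on hg38, and featureCounts gave raw counts, deposited for 28395 Entrez genes, 97.7% of which matched RefSeq. The annotation and strand setting of the counting are not given in the sources used here, so overlapping genes cannot be separated. The members and lists were chosen with earlier results of these data known.

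Counts were fitted over the whole table, separately for each contrast, with edgeR 4.0.16 in R 4.3.3 (filterByExpr defaults, TMM factors, robust quasi-likelihood test, Benjamini-Hochberg adjustment), and a call needed adjusted p below 0.05 with an absolute log2 fold change above 0.58. All members passed the filter in every contrast. Standard errors are the log2 fold change divided by the root of F. The fit was tested on simulated counts. GC content, length, fingers and unique windows came from GENCODE 44 transcripts, and GC and length trends from lowess (statsmodels 0.14.6, fraction 0.3). Alternatives were limma-voom (limma 3.58.1), DESeq2 1.42.0, RLE factors, other filters and thresholds, a replicate block and each library left out. The looser KRAB signature, the cluster and feature medians without DU145 overexpression replicate 2, the counts in both lines with a library left out and the line difference with a shared or no minimum were added after seeing the data. Named genes were the 6 members with the largest and the 6 with the smallest change in each contrast (with overexpression, among those of at least 1 CPM in either group, and between lines, among those called), the 4 with most reads, ST6GAL1 and the corepressor list. p-values measure the spread between the biological replicates of one transduced line. The SDs and standard errors printed after ± include that spread, whereas count minimums cover counting error only.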

Additional observations from a re-analysis of the deposited data

Results flagged for a closer look

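ZNF491 was picked out because its libraries moved in opposite directions in the lines. Its log2 fold change with ST6GAL1 overexpression was 0.57 in PC3, with all 3 overexpression libraries above all controls, and -0.89 in DU145, where 0.582 and 0.390 CPM with overexpression lay below 0.659, 1.26 and 0.746 CPM in the controls. The DU145 values rest on 7 to 20 reads a library. ZNF444, a SCAN and zinc finger gene, showed the same kind of pattern at a higher level, with a log2 fold change of 0.14 in PC3 (52.5, 54.4 and 50.6 CPM to 57.7, 57.9 and 57.8 CPM) and -0.42 in DU145 (9.68, 12.1 and 11.9 CPM to 8.15 and 8.58 CPM). Neither difference between the lines was tested.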

How the results depend on the processing

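Over all alternatives the median of the members kept its sign in each contrast. Members called in PC3 (5) numbered 3 to 8 with one library left out, 62 by the adjusted p alone and 2 at an absolute log2 fold change over 1. In DU145 (7 called, median 0.177) the number was 4 with DESeq2, 23 by the adjusted p alone, 1 at a fold change over 1 on the log2 scale and 3 to 21 with one library left out, where the median ran from 0.111 to 0.244, and it was 0.130 after the GC and length trend. At an adjusted p under 0.05, DESeq2 gave 26 higher members in PC3 and 8 in DU145 in place of 57 and 22. Between the lines (144 called, median -0.765), 86 passed a log2 difference over 1, and the median was -0.787 to -0.702 with one library left out, -0.828 after the trend and -0.606 over members with at least 90% unique windows. Among the values printed, signs turned, among others, for ZNF460 in PC3 without overexpression replicate 1 (0.0328, the lowest being -0.380 without overexpression replicate 2), ZNF358 in DU145 without overexpression replicate 2 (0.0732, the lowest being -0.564 without replicate 3), and the line difference of the cluster from ZNF101 to ZNF429 when a gap of 2 Mb joined it to its neighbour (-0.428 over 15 members), as the join itself brings, and the DU145 median of the cluster from ZNF653 to ZNF791 was -0.00076 without overexpression replicate 2. Without that library, DU145 medians also turned for the small groups ZNF554 to ZNF77 (-0.0517) and ZNF574 to ZNF526 (0.0995). The same held for the members without the looser KRAB signature (0.0756). The other causes were not tested.

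With the replicate number as a block, 5, 8 and 144 members were called, with medians of 0.134, 0.198 and -0.766, and the call of ZNF347 in DU145 was lost at 0.552. Same-numbered samples did not deviate together in PC3 (correlations -0.0019, 0.0753 and 0.0608) or between the lines (0.0311, 0.0161 and 0.0485), and DU145 has only 2 such pairs (0.0867 and 0.293), so the number was not taken as a pairing.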

Other observations

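The 57 chromosome 19 ZNF genes under the minimum split by line. In 22 the controls of both lines were under 30 reads, in 25 only those of PC3 and in 10 only those of DU145. No read fell on 7 genes in any PC3 control library, while the DU145 controls held 146 to 574 reads. They are ZNF560, ZNF506, ZNF93 (known to restrain LINE-1 elements), ZNF90, ZNF829, ZNF568 and ZNF583. ZNF829 was read at 13.004 ± 1.19 CPM in DU145 controls (SD, n = 3), at least 212-fold higher than a floor of 3 reads over the PC3 controls together, and its neighbour ZNF568, at 8.18 ± 0.797 CPM, at least 133-fold higher. ZNF560 was read at 12.4 ± 0.374 CPM, at least 202-fold higher. Of the 7 genes, 5 had no read in the PC3 overexpression libraries either, and the others had 4 reads in all.

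In the opposite direction, ZNF439 had 112, 103 and 97 reads in the PC3 controls and 1, 1 and 0 in the DU145 controls, and ZNF492 had 34, 37 and 35 reads against 0, 0 and 1. ZNF439 lies in the cluster from ZNF653 to ZNF791, where all members were lower in DU145.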
